A study of Pinus tabuliformis with 21 samples.

Results

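The 100 gene models with the most counts in unirradiated foliage of Pinus tabuliformis, the Chinese pine, were followed through ultraviolet irradiation. They were selected on 1 value, the mean over the 3 control libraries of the count divided by the library total and scaled to a library of 1000000 (CPM), out of 84525 gene models listed. Of those, 39403 had at least 1 count in some library, so the members make up 0.254% of the gene models with a count. All 100 members passed the filter on low counts that the tests use.

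The data were 21 libraries of poly(A) RNA in 7 groups of 3, from leaves of seedlings aged 2.5 years that grew under fluorescent lamps in a greenhouse. Seedlings in 3 groups had UV-C added to that light (28 µW/cm2, from 230 to 270 nm with its peak at 254 nm) for 1, 3 or 7 d. Seedlings in 3 other groups had UV-B added (280 µW/cm2, from 280 to 320 nm with its peak at 306 nm) for the same durations. The control group had the fluorescent light alone and was taken at 0 h. The labels name no cultivar or genotype, and they do not say whether a library came from 1 seedling or a pool, so each p-value measures the spread between these libraries, which may be technical. The bands differed 10-fold in intensity by the labels, and no unirradiated library stood beside the later durations, so time and irradiation cannot be told apart in any contrast with the control or between durations.

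In green leaves the poly(A) RNA is shared very unevenly among genes, and messages for light-harvesting proteins, the small subunit of Rubisco and other parts of photosynthesis are commonly among the most abundant. Supplementary UV-B is known from pea to lower messages of that kind, while messages for screening pigments and defence rise. Because every count of a library is part of 1 total, the share held by the most abundant messages and the share left to all others move against each other. Which proteins the members encode cannot be given, since the files pair no identifier with a name or description. For the same reason the leaf label could not be checked against marker genes. Members are therefore called by their rank in the control, and 4 are named by identifier.

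Library totals lay between 6177212 and 8560163 counts, and no member had fewer than 342 counts in any library or fewer than 4649 in a control library. Counting error is therefore small beside the differences between libraries. Counts are not corrected for the length of a gene model, so a rank orders counts and not molecules. In bulk RNA, fewer cells of a type and less RNA per cell cannot be told apart. A pair of patterns among replicates touches most results on the members. Replicate 1 was the highest of the 3 libraries for 69, 75 and 68 of the 100 members under UV-B at 1, 3 and 7 d. Replicate 2 was the lowest for 79 of the 100 members under UV-C at 3 d.

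In the control the list fell off steeply from its first member. PITA_000003862-RA, ranked 1, held 2.37%, 2.38% and 2.34% of all counts in the 3 control libraries, or 23631 ± 224 CPM (SD, n = 3). PITA_000007991-RA, ranked 2, had 8504 ± 1081 CPM (SD, n = 3), and ranks 3 to 10 had means between 7859 and 4328 CPM. The first 10 members together held 7.68% ± 0.140 of the control counts (SD, n = 3), ranks 11 to 50 held 11.6% ± 0.266, and ranks 51 to 100 held 6.70% ± 0.230. The lower end of the list was a gentle slope with no gap. Just inside it, ranks 96 to 100 had 1063 ± 170, 1061 ± 42.7, 1051 ± 260, 1047 ± 587 and 1041 ± 77.4 CPM, and just outside it, ranks 101 to 105 had 1031 ± 10.4, 1031 ± 30.2, 1026 ± 72.4, 1018 ± 38.8 and 1013 ± 70.9 CPM (SD, n = 3 each). Between 95 and 96 of the 100 members were among the 100 most abundant gene models of each single control library.

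Together the members held a smaller share of the RNA at the early durations of both bands and about the control's share at 7 d. Under UV-C at 1 d they held 22.0%, 22.0% and 23.4% of counts in the 3 libraries. After 3 d of UV-C they held 20.5%, 16.3% and 21.9%, and after 7 d 25.0%, 26.6% and 27.3%. All 6 libraries of 1 and 3 d lay below the control libraries, and of the 7 d libraries 1 lay just below the control's range and 2 above it. After 1 d of UV-B the shares were 22.4%, 16.5% and 18.3%. After 3 d of UV-B they were 23.6%, 18.4% and 18.8%, and after 7 d they were 27.02%, 24.4% and 24.0%. The control libraries held 26.1%, 25.3% and 26.5%. Under UV-B, too, all libraries of 1 and 3 d were below every control library, and those of 7 d were spread around the control.

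**Figure D1:**
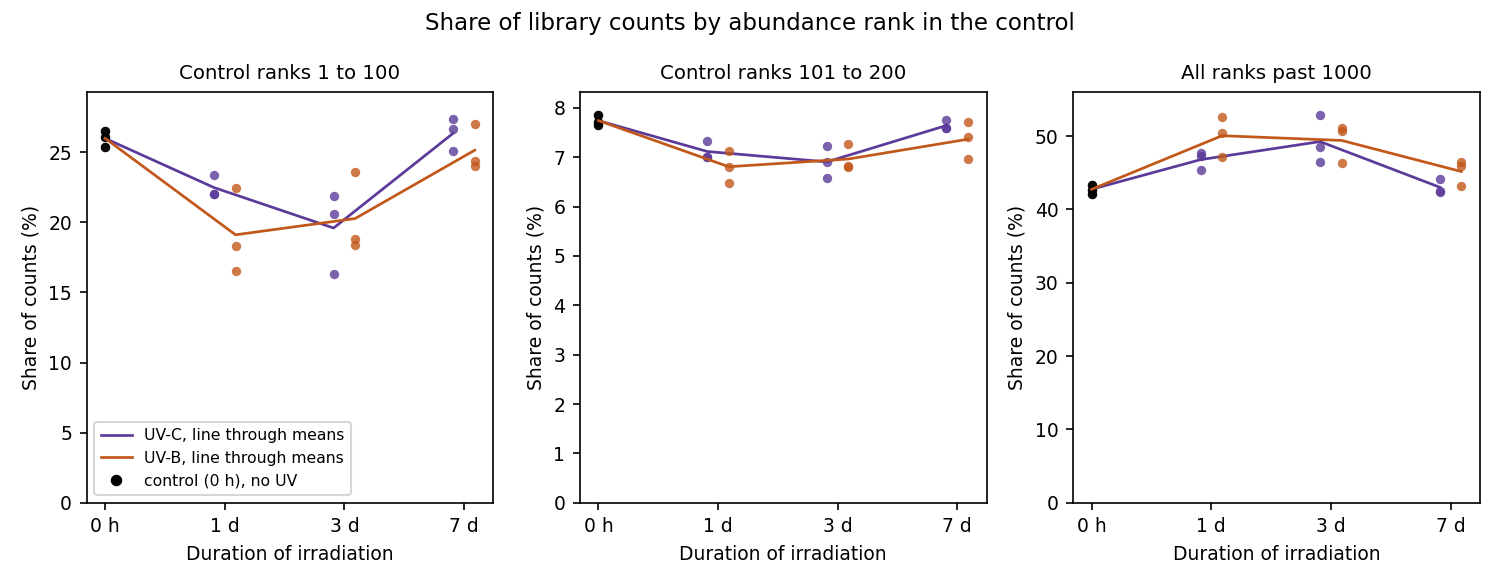
Share of library counts in percent against duration of irradiation for the members (control ranks 1 to 100), for control ranks 101 to 200 and for all ranks past 1000. Points are single libraries, 3 per group, and lines join group means (UV-C violet, UV-B orange, control black at 0 h). The members' share is lowest at 3 d of UV-C (mean 19.6%) and 1 d of UV-B (mean 19.1%), where the share past rank 1000 is highest.

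As means, the members' share was 22.5% ± 0.766, 19.6% ± 2.89 and 26.3% ± 1.17 at 1, 3 and 7 d of UV-C, and 19.1% ± 3.02, 20.3% ± 2.90 and 25.1% ± 1.64 at 1, 3 and 7 d of UV-B, against 26.0% ± 0.603 in the control (SD, n = 3 each). Because the control libraries chose the members, these differences from the control are a description and carry no test. At 3 d of UV-C the share without replicate 2 was 21.2%, and at 1 d of UV-B it was 20.4% without replicate 2 and 17.4% without replicate 1. By these means the lowest share was at 3 d for UV-C and at 1 d for UV-B. For UV-B the order of 1 and 3 d rested on single libraries. Without replicate 1 the mean at 3 d was 18.6%, below that of 1 d. Without replicate 2 the mean at 1 d was just above that of 3 d. The libraries of the 2 bands overlapped at each duration.

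The smaller share was spread over most of the list. At 1 d of UV-B, 83 members had a lower mean share than in the control and lost 8.44 percentage points between them, while 17 members had a higher one and gained 1.57 points. Rank 1 alone accounted for 11.05% of that loss, and the 10 members with the largest losses for 35.8%. After 3 d of UV-C, 84 members lost 7.47 points and 16 gained 1.08, with rank 1 at 15.0% of the loss. After 1 d of UV-C, 80 members lost 4.30 points and 20 gained 0.797. Under UV-B for 3 d, 78 members lost 6.85 points and 22 gained 1.14. At 7 d the gains and losses were closer: under UV-C 53 members lost 2.67 points and 47 gained 3.03, and under UV-B 64 lost 3.60 points and 36 gained 2.76. A joint share near the control's at 7 d therefore stood for members on both sides of their control level. These counts were not made over all tested gene models, and the control values chose the members, so they are a description.

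Within the list the drop was deepest at the top. The first 10 members held 5.25% ± 1.00 at 3 d of UV-C and 5.11% ± 1.08 at 1 d of UV-B, against 7.68% ± 0.140 in the control (SD, n = 3 each). These means were 0.684 and 0.665 times the control's. For ranks 51 to 100 the ratios were 0.831 and 0.796. The next 100 gene models, ranks 101 to 200, held 6.91% at 3 d of UV-C and 6.81% at 1 d of UV-B, against 7.74% ± 0.102 in the control (SD, n = 3). The UV-B mean was 0.879 times the control's. The share of gene models past rank 1000 was larger instead. They held 46.8%, 49.2% and 43.0% at 1, 3 and 7 d of UV-C and 50.1%, 49.4% and 45.2% at 1, 3 and 7 d of UV-B, against 42.7% ± 0.608 in the control (SD, n = 3).

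The concentration of the RNA can also be read without the control's list, from the 100 most abundant gene models of each library itself. They held 23.0% ± 0.579, 21.9% ± 1.32 and 27.04% ± 1.26 of counts at 1, 3 and 7 d of UV-C and 21.8% ± 2.10, 22.5% ± 2.14 and 26.2% ± 1.53 at 1, 3 and 7 d of UV-B, against 26.1% ± 0.620 in the control (SD, n = 3 each). By this definition the control's members can hold at most that share, and they held less in every group, the control included. The number of gene models needed to reach 50% of the counts was 789, 807 and 621 on average at 1, 3 and 7 d of UV-C, and 798, 812 and 682 at 1, 3 and 7 d of UV-B, against 655 in the control. RNA was thus spread over more gene models at 1 and 3 d of both bands than in the control.

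Single members were counted as wholly lower or wholly higher where their 3 irradiated libraries lay all below or all above the 3 control libraries. These counts are a description, since the same control values chose the members, and the shares over all 18265 gene models tested are given beside them without a reading. At 1 d of UV-C, 49 members were wholly lower (11.2% of all tested) and 6 wholly higher (20.5%). At 3 d of UV-C, 65 were wholly lower (17.7%) and 7 wholly higher (22.7%), and at 7 d 34 were wholly lower (21.9%) and 25 wholly higher (19.2%). Under UV-B, 63 were wholly lower (23.1%) and 10 wholly higher (28.2%) at 1 d. After 3 d of UV-B 64 were wholly lower (21.2%) and 8 wholly higher (29.1%), and after 7 d 40 were wholly lower (19.4%) and 22 wholly higher (24.6%). By count, wholly lower members outnumbered wholly higher ones in every group, least so at 7 d. That order is not read further, as the same control values chose the members.

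**Figure D2:**
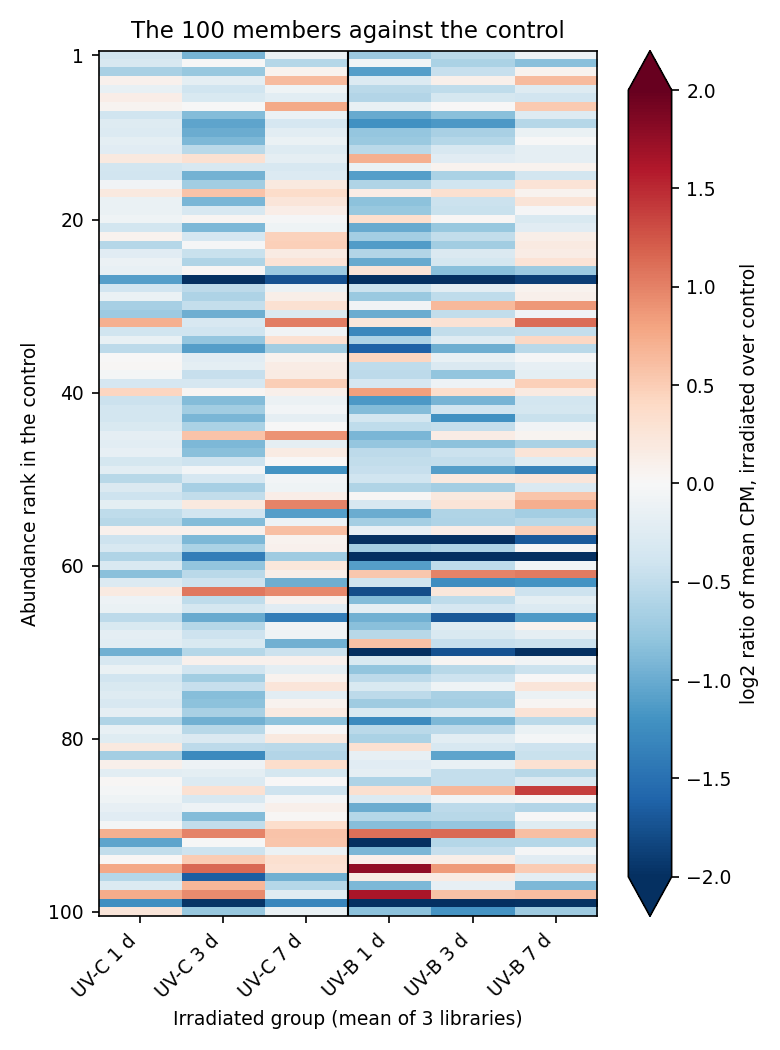
The log2 ratio of mean CPM in each irradiated group over the control for all 100 members, ordered by control rank from top to bottom (blue lower, red higher, colours capped at 2 in either direction, means of 3 libraries). Most rows are blue at 1 and 3 d of both bands, with a paler 7 d column, and rows such as ranks 27, 59, 91 and 95 keep their colour across groups.

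The typical member was lower by a modest amount, except at 7 d of UV-C, where it was close to its control level. The median log2 ratio of the members to the control was -0.23, -0.47 and -0.02 at 1, 3 and 7 d of UV-C and -0.58, -0.46 and -0.14 at 1, 3 and 7 d of UV-B. Over all tested gene models it was 0.10, 0.06 and -0.01 for UV-C and 0.08, 0.11 and 0.07 for UV-B. Few members were lower by at least 1 on the log2 scale: 3, 8 and 5 at 1, 3 and 7 d of UV-C and 19, 12 and 8 at 1, 3 and 7 d of UV-B. Between 0 and 3 members per group were higher by that much. These counts, too, were not made over all tested gene models.

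A small set of members lay on 1 side of the control throughout. For 14 members every irradiated library was below all control libraries (2.82% of all tested), and for 2 every one was above them (4.19%). For 21 members every UV-C library was below the control (5.04%) and for 2 above it (6.78%). For 33 every UV-B library was below the control (11.4%) and for 2 above it (13.6%). All of these use the same 3 control libraries. The 14 comprised ranks 1, 9, 15, 21, 27, 31, 35, 41, 59, 62, 65, 70, 72 and 78, and the 2 were ranks 91 and 95. Rank 27, singled out after its values were seen, showed the widest fall-off among the first 50. Under UV-C it had 1712, 751 and 1769 CPM after 1 d, 721, 639.5 and 808 CPM after 3 d and 967, 1072 and 684 CPM after 7 d. Under UV-B it had 868, 441 and 365 CPM after 1 d, 671, 509 and 205 CPM after 3 d and 1136, 534 and 796 CPM after 7 d. The control libraries had 2827, 3033 and 3224 CPM. Its mean placed it between rank 58 and rank 259 in the irradiated groups.

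Rank 91 and rank 95 went the other way. Rank 91 had 1811 ± 165, 2183 ± 449 and 1630.1 ± 215 CPM at 1, 3 and 7 d of UV-C and 2358 ± 266, 2412 ± 344 and 1675 ± 349.9 CPM at 1, 3 and 7 d of UV-B, against 1103 ± 111 CPM in the control (SD, n = 3 each). Rank 95 had 1851 ± 413, 2381 ± 1062 and 1320.0 ± 99.6 CPM under UV-C and 3683 ± 1209, 1953 ± 335 and 1534 ± 87.3 CPM under UV-B, against 1077 ± 83.4 CPM in the control (SD, n = 3 each). Both had a lower mean at 7 d than at 1 d in each band, with every irradiated library above all control libraries. Rank 95 stood at rank 12 of all gene models at 1 d of UV-B.

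To set the members against control libraries that had no part in choosing them, 100 gene models were chosen on 2 control libraries and tested against the third, in turn. Between 97 and 98 of each 100 were members of the main list. The lone control library is assumed in this fit to vary like the other groups. At 1 d of UV-B, 20, 21 and 22 of the 100 passed edgeR's quasi-likelihood test against control replicates 1, 2 and 3, where 10.3%, 11.7% and 10.6% of all tested gene models did. Of these, 16, 18 and 19 were lower, where 5.19%, 5.79% and 5.39% of all were. After 3 d of UV-B, 10, 10 and 9 passed (7%, 8.4% and 5.98% of all), of which 9 were lower each time, where 3.79%, 4.34% and 3.28% of all were. After 7 d of UV-B, 3, 3 and 4 passed (1.93%, 2.89% and 2.02% of all).

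Under UV-C few gene models of any abundance passed against a single control library. At 1 d 0, 0 and 0 of the 100 passed (0.0799%, 0.165% and 0.205% of all), at 3 d 0, 1 and 1 (0.17%, 1.35% and 0.399%), and at 7 d 1, 0 and 0 (0.474%, 0.693% and 0.354%). By the same edgeR test at an unadjusted p under 0.05, 10, 9 and 12 of the 100 passed after 1 d, then 45, 43 and 56 after 3 d, then 15, 19 and 8 after 7 d. The shares of all tested gene models at that threshold were 9.59%, 10.5% and 11.2% after 1 d, then 20.8%, 22.2% and 20.6% after 3 d, then 13.5%, 15.2% and 13.3% after 7 d. The median log2 fold change of the 100 at 3 d of UV-C was -0.51, -0.44 and -0.60 against control replicates 1, 2 and 3, and at 1 d of UV-B it was -0.63, -0.59 and -0.67. Over all tested gene models these medians lay between 0.04 and 0.09. Against control libraries outside the choice, the median of the 100 was thus below that of all tested gene models at 3 d of UV-C and 1 d of UV-B. Gene models of similar abundance were not counted in these fits, so the counts of calls are not read as particular to the members.

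The first 100 changed in every irradiated group, most at 1 d of UV-B and least at 1 d of UV-C. By group mean, 90, 74 and 83 of the members were among the 100 most abundant gene models at 1, 3 and 7 d of UV-C, and 66, 74 and 80 at 1, 3 and 7 d of UV-B. In the single libraries of UV-C the members kept were 91, 80 and 91 after 1 d, then 75, 56 and 82 after 3 d, then 83, 87 and 83 after 7 d. In those of UV-B they were 77, 57 and 64 after 1 d, then 77, 69 and 68 after 3 d, then 81, 78 and 79 after 7 d. The least complete lists were those of UV-C 3 d replicate 2 and UV-B 1 d replicate 2. In all 7 groups 53 members stayed in the first 100, and 39 did so in all 21 libraries. Those 53 held 14.8% ± 2.25 of counts at 3 d of UV-C and 14.7% ± 2.57 at 1 d of UV-B, against 19.3% ± 0.458 in the control (SD, n = 3 each), so the members that kept their place were also lower at these durations.

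**Figure D3:**
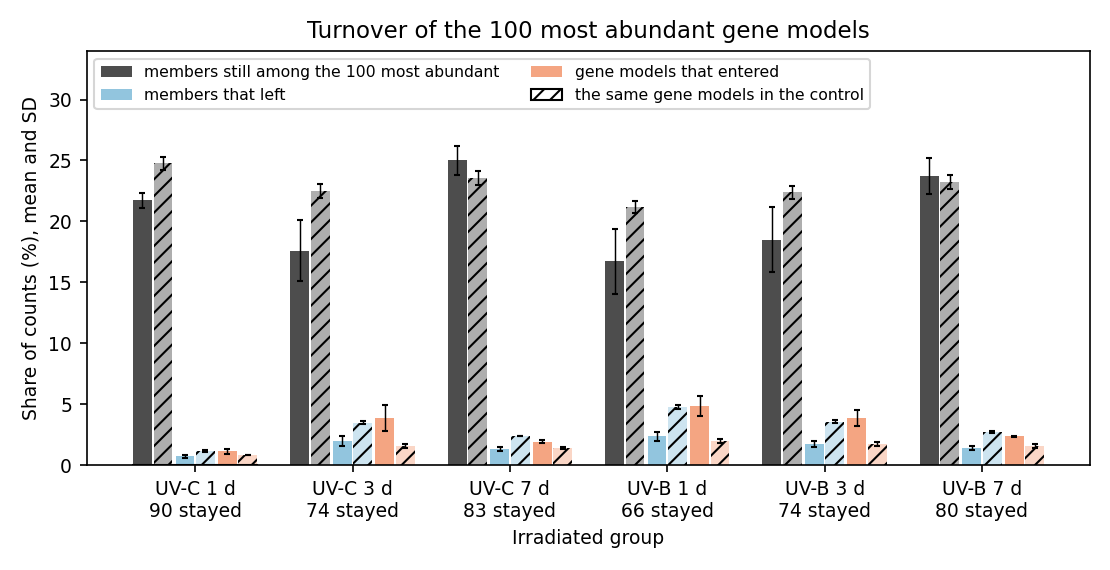
Share of counts in percent (mean and SD of 3 libraries) held in each irradiated group by members that stayed among its 100 most abundant gene models, by members that left and by gene models that entered, with the same gene models in the control as hatched bars to the right of each. At 1 d of UV-B, 66 members stayed, and the entering gene models held 4.83% there against 1.98% in the control.

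Most of the gene models that came in were already abundant in the control. The median control rank of those that entered was 119, 202 and 120 at 1, 3 and 7 d of UV-C. It was 226, 147.5 and 132.5 at 1, 3 and 7 d of UV-B. Those from beyond control rank 500 numbered 0, 3 and 1 at 1, 3 and 7 d of UV-C and 5, 2 and 0 at 1, 3 and 7 d of UV-B. The farthest came from control rank 7455, at 1 d of UV-B. At 1 d of UV-B the 34 that entered held 4.83% ± 0.818 of counts, against 1.98% ± 0.159 in the control, and the 34 members they displaced held 2.37% ± 0.388, against 4.79% ± 0.189 in the control (SD, n = 3 each). After 3 d of UV-C the 26 that entered held 3.89% ± 1.09, against 1.60% ± 0.147 in the control. After 1 d of UV-C only 10 entered, with 1.15% ± 0.183, against 0.845% ± 0.0113 in the control (SD, n = 3 each). The gene models that entered were chosen for being high in the irradiated group, so these differences are a description. The highest entry was control rank 409, not a member. It stood at rank 7 at 3 d of UV-C with 4300.3, 7699 and 2031 CPM, and at rank 11 at 3 d of UV-B with 1547, 4637 and 5287 CPM, against 349.6, 276.1 and 390.9 CPM in the control.

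In all, 52 gene models entered the first 100 in at least 1 irradiated group. Among the members, 2 were outside the first 100 in every irradiated group, ranks 78 and 99. The lowest place of any member was rank 1975, taken by rank 99 at 1 d of UV-B with 185, 62.9 and 75.9 CPM, against 799.8, 624 and 1717 CPM in the control, where its 3 libraries were themselves far apart.

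Among the first 10, the single most abundant gene model kept its place while its level moved. PITA_000003862-RA was the most abundant gene model of 20 of the 21 libraries, the exception being replicate 2 at 3 d of UV-C. Under UV-C it had 17422, 17276 and 19482 CPM after 1 d, 15102, 8319 and 13974 CPM after 3 d and 21723, 22314 and 21593 CPM after 7 d. Under UV-B it had 18263, 10557 and 14084 CPM after 1 d, 19998, 15502 and 13122 CPM after 3 d and 22696, 21589 and 21966 CPM after 7 d. The control libraries had 23703, 23810.2 and 23379.7 CPM. Every irradiated library lay below the control's range, by most at 3 d of UV-C and 1 d of UV-B and by least at 7 d. It was higher at 7 d than at 1 d of UV-B (log2 fold change 0.65, SE 0.21, edgeR adjusted p = 0.0484). The same contrast within UV-C missed the threshold (log2 fold change 0.41, SE 0.21, edgeR adjusted p = 0.254).

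**Figure D4:**
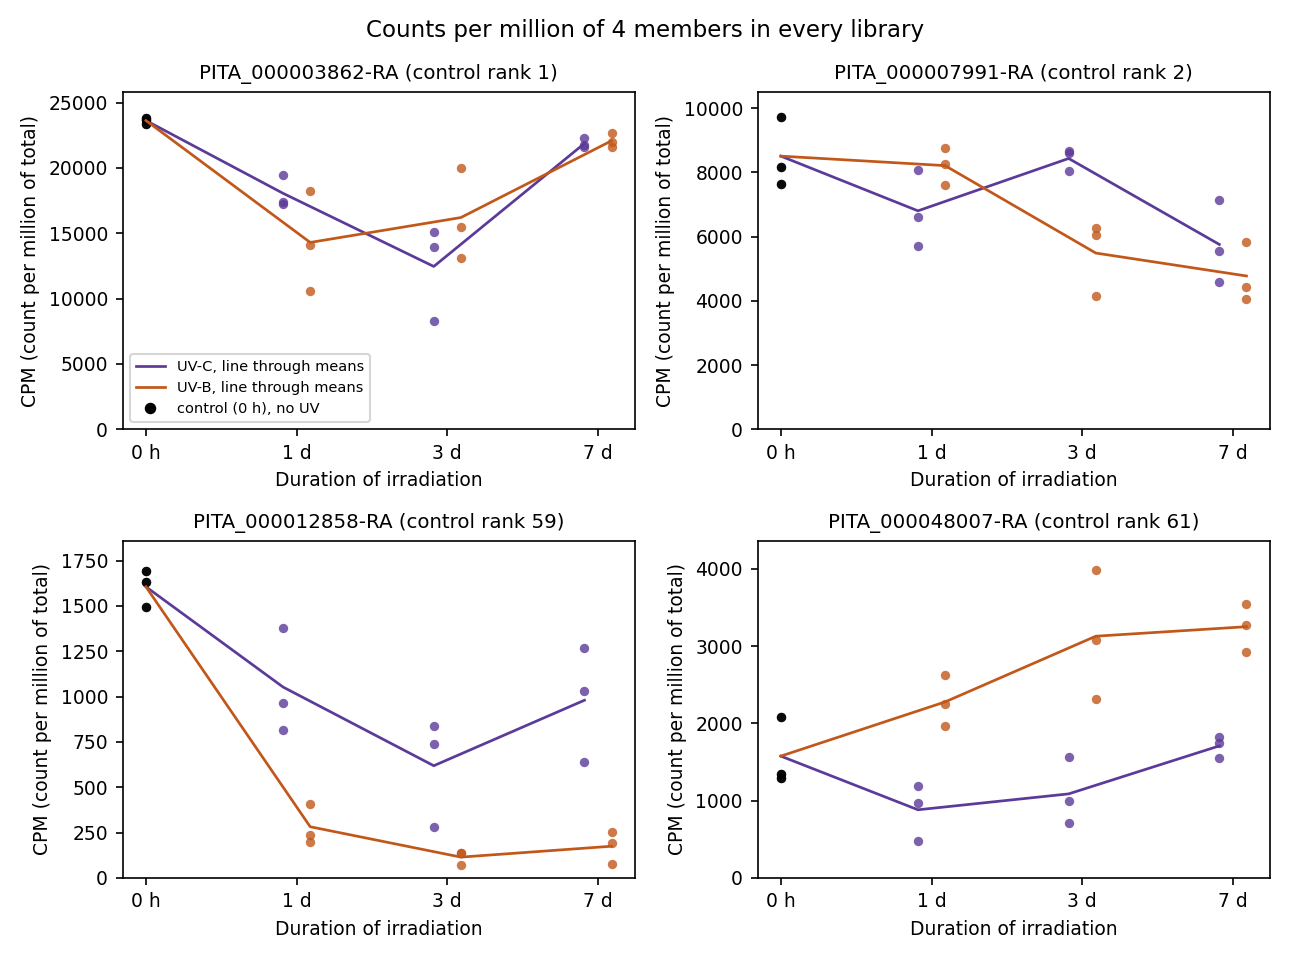
CPM of the 4 named members in every library against duration of irradiation, each panel on its own linear axis from 0 (points are libraries, lines join group means, UV-C violet, UV-B orange, control black). PITA_000003862-RA dips and returns, PITA_000007991-RA is lowest at 7 d of UV-B, PITA_000012858-RA reaches at most 409.8 CPM in a UV-B library, and PITA_000048007-RA is lower under UV-C at 1 and 3 d.

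PITA_000007991-RA did not follow that course. In UV-C libraries it had 5702, 8079.9 and 6620.1 CPM after 1 d, 8029.5, 8608 and 8655 CPM after 3 d and 4580.3, 7127 and 5557 CPM after 7 d. In UV-B libraries it had 7602, 8756 and 8266 CPM after 1 d, 6269, 4149 and 6043 CPM after 3 d and 5839.6, 4429 and 4052 CPM after 7 d. In control libraries it had 9716, 7639.7 and 8155 CPM. Under UV-B its libraries overlapped the control at 1 d and lay below it at 7 d, where it was lower than at 1 d (log2 fold change -0.76, SE 0.20, edgeR adjusted p = 0.0201). UV-C at 3 d was higher than UV-B at 3 d with no overlap of libraries, just outside the threshold (log2 fold change 0.65, SE 0.20, edgeR adjusted p = 0.0573). That contrast passed with no filter on low counts (edgeR adjusted p = 0.0478), without UV-B 7 d replicate 1 (edgeR adjusted p = 0.0484) and by DESeq2's Wald test (adjusted p = 0.0213). Under all other alternatives it stayed outside the threshold, a fit of only the groups compared among them.

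Ranks 3, 4 and 7 had means at 7 d of both bands above their control means. Rank 3 had, under UV-C, 5060.5, 4808 and 5147 CPM after 1 d, 5114, 3332 and 5571 CPM after 3 d and 7407, 7623 and 9672 CPM after 7 d. It had, under UV-B, 5545, 2156 and 3327 CPM after 1 d, 7323, 4504 and 5322 CPM after 3 d and 9245, 7723 and 7699.8 CPM after 7 d. In the control it had 7669, 7866 and 8043 CPM. Its value in replicate 2 at 1 d of UV-B was less than in any other library. It was higher at 7 d than at 1 d of UV-B (log2 fold change 1.19, SE 0.27, edgeR adjusted p = 0.00865). Rank 4 had 11432 ± 1804 CPM at 7 d of UV-C and 11383 ± 1104 CPM at 7 d of UV-B, against 7337 ± 705 CPM in the control (SD, n = 3 each). All 6 of these 7 d libraries were above the control libraries. Rank 7 had 8487 ± 122 CPM at 7 d of UV-C and 7212 ± 841 CPM at 7 d of UV-B, against 5042 ± 395 CPM in the control (SD, n = 3 each), and was higher at 7 d than at 1 d within both bands, by 0.82 (edgeR adjusted p = 0.0317) in UV-C and 0.69 (edgeR adjusted p = 0.0429) in UV-B on the log2 scale.

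Ranks 8, 9 and 10 had lowest log2 ratios to the control of -1.01, -1.22 and -0.999 and had means still below it at 7 d of both bands. For rank 9 the UV-C libraries had 3637, 3413 and 4209 CPM after 1 d, 2442, 1233 and 2784 CPM after 3 d and 3488, 3427 and 3711 CPM after 7 d. For the same gene model the UV-B libraries had 2395, 1663 and 1725 CPM after 1 d, 2613, 1914 and 1549 CPM after 3 d and 3282, 2863 and 2941 CPM after 7 d. The 3 control libraries had 4444, 4463 and 4520.4 CPM. No irradiated library of rank 9 reached the control. At 1 d it was higher under UV-C than under UV-B (log2 fold change 0.92, SE 0.24, edgeR adjusted p = 0.0124), as was rank 6 (log2 fold change 0.67, SE 0.15, edgeR adjusted p = 0.00496). Rank 5 had its lowest mean, 3833 ± 379 CPM, at 1 d of UV-B, against 5594 ± 219 CPM in the control (SD, n = 3 each), and passed none of the 6 tests between irradiated groups.

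Contrasts between irradiated groups leave the control libraries out of the difference, so they were tested. The control libraries still had a part in the filter, the scaling and the shared estimate of the spread. The largest number of member calls came from 7 d against 1 d of UV-B. There 46 of the 100 members were higher at 7 d and 9 lower by edgeR's quasi-likelihood test at an adjusted p under 0.05, where 6.81% of all 18265 tested gene models were higher and 8.33% lower. The median log2 fold change was 0.56 over the members and 0.01 over all tested, and 78 members had a positive sign. The members' share of higher calls was well above the background, and their share of lower calls was close to it. Among control ranks 101 to 200 25 were higher and 9 lower, among ranks 201 to 500 15.7% were higher and 15% lower, and among ranks 501 to 1000 13% were higher and 17.6% lower. Higher calls thus became fewer down the order of control abundance.

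The count of 55 calls depended on single libraries. It was 12 without UV-B 1 d replicate 2, 22 without UV-B 1 d replicate 3, 24 without UV-B 7 d replicate 1 and 25 without UV-B 7 d replicate 3. It also depended on the other groups in the fit, the control among them. A fit of only those groups called 12 (9 higher and 3 lower, where 3.11% and 5.62% of all tested gene models were). Without control replicates 1, 2 and 3 in turn, 33, 36 and 37 members were higher (5.34%, 5.49% and 5.92% of all). In these fits 8, 8 and 7 were lower (7.3%, 7.41% and 7.49% of all). The split between higher and lower depended on single libraries too. Without UV-B 7 d replicate 1, 13 were higher and 11 lower, where 3.53% and 4.49% of all tested gene models were. Without UV-B 1 d replicate 2, 9 were higher and 3 lower (2.18% and 3.2% of all), and without UV-B 1 d replicate 3, 15 and 7 were (4.35% and 6.16% of all).

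**Figure D5:**
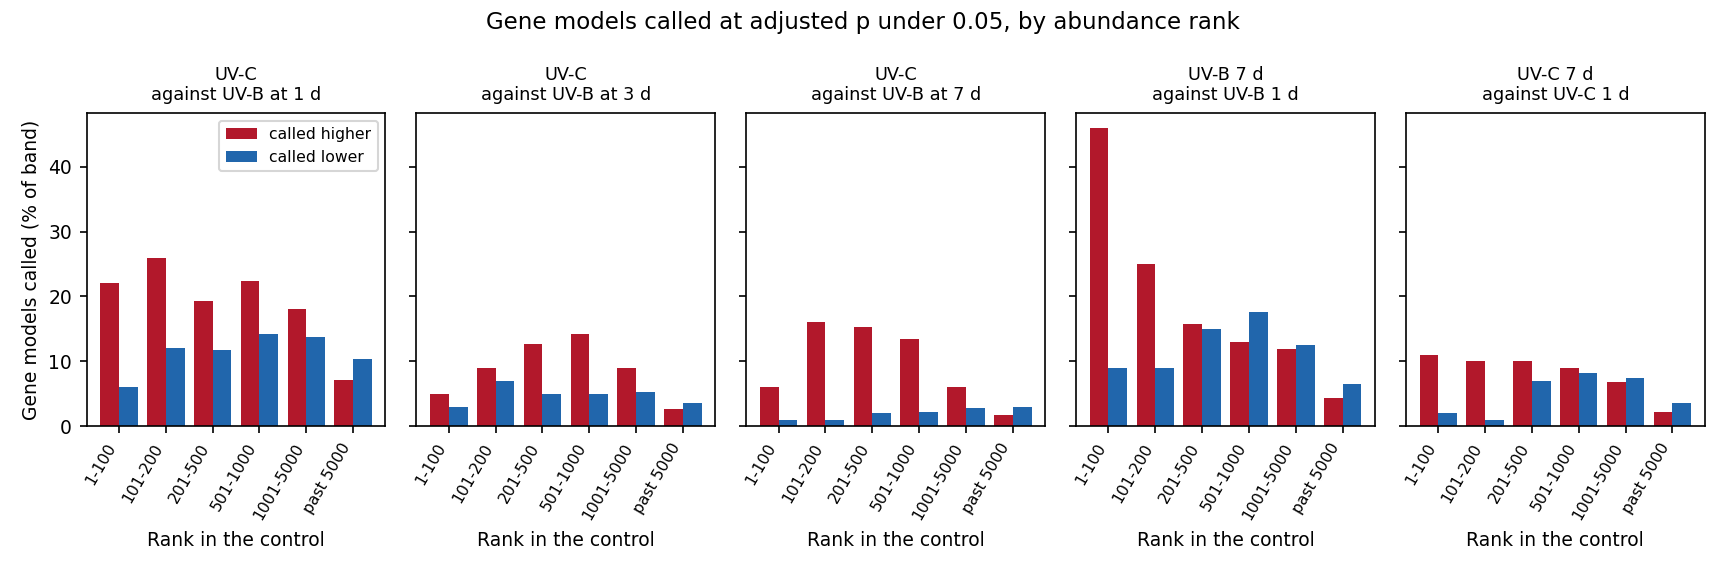
Percent of gene models called higher (red) or lower (blue) at an adjusted p under 0.05 in each band of control abundance rank, for the 3 contrasts of UV-C with UV-B and the contrasts of 7 d with 1 d within each band of UV. In UV-B 7 d against 1 d, 46% of ranks 1 to 100 were called higher and 9% lower, against 25% and 9% of ranks 101 to 200.

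The 46 members that were higher at 7 d than at 1 d of UV-B were mostly members that had been low at 1 d. Of the 46, 45 had a mean below the control at 1 d, and their median log2 ratio to the control was -0.74, -0.42 and 0.05 at 1, 3 and 7 d. Together they held 8.62%, 11.1% and 15.2% of counts at 1, 3 and 7 d of UV-B, against 14.1% in the control. The 9 members that were lower held 3.17%, 1.88% and 1.73% at 1, 3 and 7 d, against 2.29% in the control, and 6 of the 9 were above the control at 1 d. Both sets were defined by the difference of 7 and 1 d, so their course is a description.

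The largest difference among the members that were higher belonged to rank 92. It had 621, 872 and 725 CPM at 7 d of UV-B and 177, 59.6 and 88.9 CPM at 1 d (log2 fold change 2.79, SE 0.34, edgeR adjusted p = 0.000309), with control values of 951, 1016 and 1343 CPM. The highest library of 1 d was far below the lowest control library. It was the only member called with a minimum log2 fold change of 1. Rank 63 had 889.8, 1667 and 917 CPM at 7 d and 328, 422 and 601 CPM at 1 d of UV-B (log2 fold change 1.38, SE 0.25, edgeR adjusted p = 0.00276). Rank 23 had 4432, 3510.0 and 3791 CPM at 7 d and 2498, 1277 and 994 CPM at 1 d of UV-B (log2 fold change 1.32, SE 0.33, edgeR adjusted p = 0.0139). In each of these, no library of 7 d was as low as one of 1 d.

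Among the 9 that were lower, rank 95 had 1590.3, 1578 and 1433 CPM at 7 d and 2358, 4725 and 3967 CPM at 1 d of UV-B (log2 fold change -1.25, SE 0.28, edgeR adjusted p = 0.00867). Rank 98 had 1890.3, 1631 and 1318 CPM at 7 d and 2994, 4036 and 2768 CPM at 1 d (log2 fold change -0.996, SE 0.27, edgeR adjusted p = 0.0213), with control values of 995, 822 and 1334 CPM. Rank 69 had 1439.6, 839.8 and 914 CPM at 7 d and 2122, 2206 and 2133 CPM at 1 d (log2 fold change -0.99, SE 0.23, edgeR adjusted p = 0.0107), with control values of 1545, 1357 and 1402 CPM. All 3 were above the control libraries at 1 d of UV-B, so these were members high at 1 d that were lower by 7 d.

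Within UV-C fewer members differed between 7 and 1 d. There 11 were higher at 7 d and 2 lower by edgeR's test, where 3.59% and 4.56% of all tested gene models were. Ranks 101 to 200 gave 10 higher and 1 lower. Among ranks 201 to 500 10% were higher and 7% lower, and among ranks 501 to 1000 9% were higher and 8.2% lower. The number of higher calls was thus not particular to the members. The median log2 fold change was 0.38 over the members and 0.00 over all tested, and 78 members had a positive sign, as many as under UV-B. The split depended on the scaling: with library totals in place of TMM factors, 6 members were higher and 5 lower, and the median over all tested gene models moved by -0.13. The 13 calls became 1 and 6 when replicates 1 and 2 of UV-C at 1 d were left out in turn, and 5 and 2 when replicates 1 and 3 of UV-C at 7 d were. They became 22 when replicate 1 of UV-B at 1 d was left out. DESeq2's Wald test gave 24.

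Rank 92 again had the largest difference. It had 1551, 1381 and 1926 CPM at 7 d and 594, 471 and 520.5 CPM at 1 d of UV-C (log2 fold change 1.75, SE 0.33, edgeR adjusted p = 0.00497). Rank 53 had 3296, 3683 and 3896 CPM at 7 d and 1443, 1474 and 1868 CPM at 1 d (log2 fold change 1.31, SE 0.33, edgeR adjusted p = 0.0244), against 1827, 1559.6 and 2087 CPM in the control. Rank 45 had 3412, 3345 and 4598 CPM at 7 d and 1639, 2325 and 1445 CPM at 1 d (log2 fold change 1.20, SE 0.29, edgeR adjusted p = 0.0178). Ranks 53 and 45 ended above all their control libraries. The 2 that were lower were rank 49, with 636, 1139 and 773 CPM at 7 d and 1708, 1907 and 1406 CPM at 1 d (log2 fold change -0.84, SE 0.21, edgeR adjusted p = 0.022), and rank 62, with 703, 873 and 786 CPM at 7 d and 1295, 1349 and 1217 CPM at 1 d (log2 fold change -0.58, SE 0.16, edgeR adjusted p = 0.0358). Both were also lower at 7 d than at 1 d of UV-B, with log2 fold changes of -0.86 (edgeR adjusted p = 0.0118) for rank 49 and -0.76 (edgeR adjusted p = 0.00571) for rank 62.

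The contrasts of 7 d with 1 d in the 2 bands have no library in common, though they use the same estimate of the spread. Of the members that were higher, 10 were called in both, which is 90.9% of the 11 in UV-C and 21.7% of the 46 in UV-B. Of the 46 in UV-B, 43 had a positive sign in UV-C, as had 78 of all 100 members. Both of the members that were lower in UV-C were among the 9 in UV-B. Overlaps were not counted over all tested gene models, so these are given without a reading. Whether the change from 1 to 7 d differed between the bands was tested as an interaction. There 0 members were higher and 1 lower by edgeR's test, where 1.13% and 1.03% of all tested gene models were, and 6 and 7 members had an unadjusted p under 0.05, where 8.81% and 9.12% of all had. DESeq2's Wald test called 1 higher and 2 lower. The single member called was rank 35. It had 1282, 1577 and 1523 CPM at 7 d and 1739, 1811 and 1374 CPM at 1 d of UV-C, and 1344, 1693 and 1823 CPM at 7 d and 853, 637 and 803 CPM at 1 d of UV-B (difference of log2 fold changes -1.14, SE 0.22, edgeR adjusted p = 0.0174). No member was called without UV-B 7 d replicate 3, without UV-C 1 d replicate 1 or without UV-C 7 d replicate 1, and 3 were called without UV-B 1 d replicate 1 or UV-B 7 d replicate 1. The 46 calls in UV-B and the 11 in UV-C therefore do not show that the bands differed in how many members changed.

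Over the 3 durations, the time of the lowest level differed between the bands in these means. Under UV-C, 18 members had their lowest mean at 1 d, 67 at 3 d and 15 at 7 d. Under UV-B, 70 had it at 1 d, 18 at 3 d and 12 at 7 d. The highest mean was at 7 d for 65 members under UV-C and 68 under UV-B. A steady order, lowest at 1 d and highest at 7 d, was found for 12 members with UV-C and for 61 with UV-B. Without replicate 2 of UV-C at 3 d, 59 members had their lowest UV-C mean at 3 d. Without replicate 1 of UV-B at 3 d, 45 had their lowest UV-B mean at 1 d. Leaving out libraries for these counts was chosen after seeing the data. Replicate 2 of UV-C at 3 d was lowest of its group for 79 members, so members of a library are not separate evidence. None of these counts was made over all tested gene models, so they are not read as particular to the members.

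UV-C against UV-B at equal duration compared the bands as given. At 1 d, 22 members were higher under UV-C and 6 lower by edgeR's test, where 10.3% and 11.1% of all tested gene models were. The median log2 fold change was 0.32 over the members and -0.02 over all tested. Ranks 101 to 200 gave 26 higher and 12 lower, so the larger number of higher calls was not particular to the members. The 28 calls became 16 and 18 when replicates 1 and 3 of UV-C were left out in turn, and 46 and 12 when replicates 1 and 2 of UV-B were. A fit of these groups alone made 13. At 3 d, 5 were higher and 3 lower, close to the 4.54% and 4.05% of all tested gene models. A fit of these groups alone called 0 higher and 0 lower, where 0.0374% and 0.156% of all tested gene models were. At 7 d, 6 were higher and 1 lower, where 3.26% and 2.83% were, and ranks 101 to 200 gave 16 higher and 1 lower. The members' median log2 fold change was -0.01 at 3 d and 0.15 at 7 d.

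Some members were called at more than 1 duration. In at least 1 of the 3 contrasts 35 members were called and in none 65. At all 3 durations 2 members were higher under UV-C and 0 lower. Calls over several contrasts were not counted for all tested gene models, so these counts are given without a reading. The contrasts at 1 and 7 d share no library but use the same estimate of the spread. They had 5 higher members in common, 22.7% of the 22 at 1 d and 83.3% of the 6 at 7 d. Of the 22, 21 had a positive sign at 7 d, as had 70 of all 100 members. The 7 calls at 7 d became 4 and 3 when replicates 2 and 3 of UV-C were left out in turn, and 3 and 3 when replicates 2 and 3 of UV-B were. A fit of the pair of groups alone made 14 and DESeq2's Wald test 17. With library totals as the scaling 6 were higher and 2 lower.

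PITA_000012858-RA, control rank 59, had the largest difference between the bands that held at all 3 durations. It had 964, 814 and 1379 CPM under UV-C, against 237, 199 and 409.8 CPM under UV-B at 1 d (log2 fold change 1.86, SE 0.44, edgeR adjusted p = 0.00762). At 3 d it had 835, 280.2 and 740.3 CPM under UV-C, against 136, 136 and 70.6 CPM under UV-B (log2 fold change 2.46, SE 0.45, edgeR adjusted p = 0.00362). At 7 d it had 1031, 1267 and 641 CPM under UV-C, against 251, 78.0 and 194 CPM under UV-B (log2 fold change 2.54, SE 0.46, edgeR adjusted p = 0.00371). Its control values were 1494, 1691 and 1632 CPM, above every irradiated library. The bands did not overlap at any duration, and its mean under UV-B put it as low as rank 1841 at 3 d. In a fit of only the groups compared the difference at 3 d had an edgeR adjusted p = 0.0825.

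PITA_000048007-RA, control rank 61, was lower under UV-C. It had 478, 1192 and 974 CPM under UV-C, against 2248, 1962 and 2624 CPM under UV-B at 1 d (log2 fold change -1.41, SE 0.32, edgeR adjusted p = 0.00538). At 3 d it had 991, 710.0 and 1560.3 CPM under UV-C, against 3985, 2322 and 3081 CPM under UV-B (log2 fold change -1.50, SE 0.32, edgeR adjusted p = 0.00856). At 7 d the values were 1744, 1553 and 1829 CPM under UV-C, against 3278, 2929 and 3549 CPM under UV-B, which did not pass (log2 fold change -0.87, SE 0.31, edgeR adjusted p = 0.111) in the fit of all groups and did in a fit of only those groups (edgeR adjusted p = 0.0093). The control libraries had 1297, 1348 and 2083 CPM. The lower 2 of them lay between the bands at 1 d, within the range of UV-C at 3 d and below both bands at 7 d. At 3 d the call was lost in a fit of only those groups (edgeR adjusted p = 0.105).

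Rank 63 was the other member higher under UV-C at all 3 durations. At 1 d it had 1829, 1571 and 1877 CPM under UV-C, against 328, 422 and 601 CPM under UV-B (log2 fold change 1.92, SE 0.26, edgeR adjusted p = 0.00016). At 3 d it had 2969, 3266 and 3359 CPM under UV-C, against 1628, 1649 and 2130.4 CPM under UV-B (log2 fold change 0.86, SE 0.25, edgeR adjusted p = 0.0409), and at 7 d 3119, 2184 and 3707 CPM under UV-C, against 889.8, 1667 and 917 CPM under UV-B (log2 fold change 1.44, SE 0.25, edgeR adjusted p = 0.00323). Its control values were 1718, 1276 and 1642 CPM, so at 3 and 7 d it stood above the control under UV-C while under UV-B it was far below the control at 1 d. In a fit of only the groups compared its call at 3 d was lost.

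Other large differences at 1 d were those of ranks 92 and 99. Rank 92 had 594, 471 and 520.5 CPM under UV-C, against 177, 59.6 and 88.9 CPM under UV-B (log2 fold change 2.24, SE 0.33, edgeR adjusted p = 0.000349). Rank 99 had 467, 162 and 713 CPM under UV-C, against 185, 62.9 and 75.9 CPM under UV-B (log2 fold change 2.01, SE 0.69, edgeR adjusted p = 0.0446), with 1 UV-C library below the highest UV-B library. Rank 95 at 1907, 2233 and 1414 CPM under UV-C, against 2358, 4725 and 3967 CPM under UV-B (log2 fold change -1.05, SE 0.28, edgeR adjusted p = 0.0149), and rank 98 at 1571, 2125 and 1571 CPM under UV-C, against 2994, 4036 and 2768 CPM under UV-B (log2 fold change -0.95, SE 0.27, edgeR adjusted p = 0.0209), were lower under UV-C. Ranks 95 and 98 were above their control mean under both bands at 1 d.

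At 3 d ranks 49 and 62, which were also called between 7 and 1 d in both bands, were higher under UV-C. Rank 49 had 1607, 2032 and 1967 CPM under UV-C, against 828, 776 and 1104 CPM under UV-B (log2 fold change 1.08, SE 0.21, edgeR adjusted p = 0.00504). Rank 62 had 1074, 1191 and 1249 CPM under UV-C, against 676, 626 and 665 CPM under UV-B (log2 fold change 0.86, SE 0.16, edgeR adjusted p = 0.00372). At 3 d of UV-C both lay near their values at 1 d, and at 3 d of UV-B near their values at 7 d. Rank 96 had 434, 248 and 337 CPM under UV-C, against 1556, 1176 and 833 CPM under UV-B (log2 fold change -1.78, SE 0.28, edgeR adjusted p = 0.00133), with control values of 1135, 1185 and 869 CPM. Rank 30 had 2235, 1692 and 2308 CPM under UV-C, against 5689, 3899 and 4023 CPM under UV-B (log2 fold change -1.10, SE 0.24, edgeR adjusted p = 0.0102), with control values of 2888, 2664 and 3106 CPM. For rank 96 it was UV-C that lay away from the control, and for rank 30 the bands lay on either side of it. In a fit of only the groups compared no member was called at 3 d, ranks 49, 62, 96 and 30 included.

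At 7 d rank 57 had 1634, 1860.1 and 1708 CPM under UV-C, against 749.8, 272 and 512 CPM under UV-B (log2 fold change 1.81, SE 0.50, edgeR adjusted p = 0.0405), with control values of 1493, 1509 and 1927 CPM. Rank 86 had 912, 679 and 933 CPM under UV-C, against 2077, 4167 and 2568 CPM under UV-B (log2 fold change -1.74, SE 0.27, edgeR adjusted p = 0.00139), with control values of 1413, 1236 and 732 CPM. Rank 57 was at its control level under UV-C at 7 d and below it under UV-B, and rank 86 was the 1 member called lower under UV-C at 7 d, with UV-B above the control.

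Members differed widely in how much their level moved. The ratio of the highest to the lowest of the 7 group means had a median of 1.94 over the 100 members. It was over 2 for 46 members, over 4 for 7 and under 1.5 for 11. The largest ratio was 14.9, for rank 92, followed by 14.0 for rank 59 and 9.71 for rank 99. The smallest was 1.26, for rank 87, which had group means of 1054, 901 and 1105 CPM at 1, 3 and 7 d of UV-C and 929.7, 1066 and 1137 CPM at 1, 3 and 7 d of UV-B, against 1123 CPM in the control. Rank 87 is given because it was steadiest, a choice made after its values were seen. In none of the 6 tests between irradiated groups 29 members were called, a count not made over all tested gene models.

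Replicates agreed less in irradiated foliage. The median coefficient of variation of the members over 3 libraries was 12.3%, 22.7% and 9.34% at 1, 3 and 7 d of UV-C and 25.0%, 18.97% and 11.1% at 1, 3 and 7 d of UV-B, against 5.75% in the control. For ranks 101 to 200 the UV-C values were 10.9%, 14.9% and 7.04% and the UV-B values 15.1%, 11.8% and 9.22%, against 4.70% in the control. The wide groups were those with the lowest joint share. What set the replicates apart was not tested.

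The identifiers themselves held 1 feature the choice did not use. Of the 100 members, 16 carried the prefix PITAhm and 83 the prefix PITA. PITAhm identifiers made up 3.92% of the 39403 gene models with a count. Their share among the members was near that at other high ranks, 17% at ranks 101 to 200, 14.7% at ranks 201 to 500 and 19.2% at ranks 501 to 1000. What the prefix stands for is not given in the sources used here. Near-identical gene copies are common in conifers, and how reads with several matches were counted is not given, so the level of any single member is uncertain to that extent.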

How the data were processed

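Poly(A) RNA was sequenced as pairs of 150 bp and trimmed with Trimmomatic 0.36, as the labels' protocols state. Counting used featureCounts 1.5.3, per the submitters' processing notes. How reads were aligned, to which reference and annotation, and how strand and multiple matches were handled is not given in the sources used here. What the authors deposited were raw counts per gene model for 21 libraries, with no normalization. Groups came from the sample labels.

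The members were the 100 gene models with the highest mean CPM in the control, where CPM is the count divided by the library total. The members, lists and tests were chosen with earlier results of these data known. Shares, ranks and log2 ratios used the same scale. Tests used edgeR 4.0.16 (quasi-likelihood, two-sided) under R 4.3.3 on the counts of all 21 libraries, with a mean for each group, TMM factors and filterByExpr, which left 18265 gene models. P-values were adjusted by Benjamini-Hochberg over all of them and called under 0.05. SEs are the log2 fold change divided by the root of F. The fit was tested on simulated data.

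By rule, the text names by identifier the members ranked 1 and 2 and, in each direction of UV-C against UV-B, the member called at the most durations with the largest smallest change. By rank it gives ranks 1 to 10, the 5 ranks on either side of the limit and, per test, the 3 called members with the largest change in each direction. Gene lists and cell type markers could not be matched without names, so none was tested. Alternatives were other scaling factors, filters on low counts, a replicate block, DESeq2 1.42.0, a fit to the compared groups alone, a minimum log2 fold change, other sizes of the list, and leaving out each library. Total counts of 6177212 to 8560163 per library make counting error small for the members.

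Over all tested gene models no pairing by replicate number was seen: correlations of same-numbered libraries ran between -0.37 and 0.36 (median 0.01). The labels do not say whether same-numbered libraries belong together. Among the members, replicate 1 was the highest for most at each duration of UV-B.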

Additional observations from a re-analysis of the deposited data

Results flagged for a closer look

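The member ranked 35 in the control was singled out because its change between 1 and 7 d differed between the bands by a test of the difference itself. The log2 fold change of 7 d over 1 d was lower in UV-C than in UV-B (difference -1.14, SE 0.22, edgeR's quasi-likelihood interaction test, adjusted p = 0.0174). In UV-C its log2 fold change was -0.03 (edgeR adjusted p = 0.928), and in UV-B it was 1.10 (edgeR adjusted p = 0.000649). All 3 libraries at 7 d of UV-B lay above the 3 at 1 d, while the UV-C libraries of 7 and 1 d overlapped. Its control libraries lay above every irradiated library.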

How the results depend on the processing

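Of the summary values under all alternatives, 669 kept their size and 66 did not. A count was taken as kept if it stayed within 1.5-fold, with higher and lower calls pooled, so a changed split does not show. A joint share was taken as kept if it moved by less than the SD of its group. Values that an alternative could not touch also count as kept, such as the share of a group with no library left out. Of the values of the 4 named members in the contrasts of the bands, 409 kept direction and call, 7 lost the call and 4 gained it. Leaving out each library in turn, members called ranged from 12 to 46 in UV-C against UV-B at 1 d, 6 to 10 at 3 d and 3 to 9 at 7 d. They ranged from 12 to 63 in UV-B 7 d against 1 d, 1 to 22 in UV-C 7 d against 1 d and 0 to 3 in the interaction. Members with their lowest mean at 3 d of UV-C ranged from 59 to 73, and at 1 d of UV-B from 45 to 72, by leaving out libraries of the band, an alternative chosen after seeing the data. With a minimum log2 fold change of 1 these counts, in the same order, were 2, 0, 0, 1, 0 and 0. A fit of only the groups compared gave 13, 0 and 14 members in UV-C against UV-B at 1, 3 and 7 d, 12 in UV-B 7 d against 1 d and 0 in the interaction. DESeq2's Wald test gave 17 in UV-C against UV-B at 7 d, 24 in UV-C 7 d against 1 d and 3 in the interaction, and no filter on low counts gave 2 in the interaction. Among the first 50 gene models 4% were called in UV-C against UV-B at 3 d, 0% at 7 d and 2% in the interaction, and among the first 200 12% at 7 d and 2% in the interaction. The cause of these changes was not tested.

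A fit with the replicate block called 32, 9 and 7 members in UV-C against UV-B at 1, 3 and 7 d, 58 in UV-B 7 d against 1 d (49 higher and 9 lower), 16 in UV-C 7 d against 1 d and 1 in the interaction. Over all tested gene models the numbers showed no pairing, and 4 of 21 libraries correlated best with those of their own number.

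The first 50 gene models held 16.7%, 14.0% and 19.7% at 1, 3 and 7 d of UV-C and 13.8%, 14.8% and 18.9% at 1, 3 and 7 d of UV-B, against 19.3% in the control. The first 200 held, in the same order, 29.6%, 26.5% and 33.98% and then 25.9%, 27.2% and 32.5%, against 33.7% in the control. On TMM-scaled library sizes the 100 members held 21.6% at 1 d and 27.8% at 7 d of UV-C, against 26.8% in the control, and with the most abundant gene model left out of the denominator they held 26.6% in the control. Members called against control replicates 2 and 3 alone were 1 and 1 at 3 d of UV-C and 0 and 0 at 7 d. Chosen by median CPM, 97 of the 100 members were the same, and by TMM-scaled CPM all 100.

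Calls rest on 3 libraries a group, and the libraries of 1 and 3 d were wider apart than those of the control, so counts of calls there are less certain than the levels. Levels of single gene models carry the uncertainty of near-identical copies.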
